A study of Rattus norvegicus with 20 samples.

Results

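Lipopolysaccharide (LPS, bacterial endotoxin) was compared with PBS in cultures of cortical microglia from rats (microglia are the macrophages that reside in brain tissue), over the 8858 of 17310 genes that had at least 1 FPKM in at least 4 of the 20 libraries of the series. FPKM are mapped fragments scaled to transcript length and to the size of the library. The comparison used 8 of the 20 libraries, 4 with PBS and 4 with LPS at 1 ng/mL. All cells came from perfused male Sprague-Dawley rats 21 days of age, without the cerebellum, were selected by immunopanning for the myeloid surface protein CD11b, and spent 5 days in serum-free medium before the treatment, which was added with a 50% change of medium. The libraries with PAM3CSK4 (1 ng/mL) and zymosan (100 ug/mL), 4 each, served as a second reference. The remaining 4 libraries, with morphine (1 uM), entered the filter, the shared estimate of spread and the library sets below, and no comparison. How long the treatment lasted is not stated in the labels. A gene near 0 with PBS entered the tested set through the treated libraries, so that a count of increases among such genes follows in part from the filter.

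TLR4, together with its partner MD-2 and the coreceptor CD14, recognises the lipid A part of LPS. One arm of its signal runs through the adaptor MyD88, the IRAK kinases and TRAF6 to NF-kB and AP-1, which switch on cytokine, chemokine and protease genes. The other arm runs through the adaptors TRAM and TRIF to TBK1 and IRF3, which switch on interferon beta and the interferon-stimulated genes. In brain microglia this response is known for the release of interleukin-1, TNF and nitric oxide and for the loss of the resting surface phenotype.

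The libraries expressed the markers of their label, and 2 further features bear on the values below. Each of 14 markers of microglia and macrophages exceeded 1 FPKM in at least 1 of the 8 libraries (P2ry12 was below 1 in all 4 with LPS), and their summed level was 2807 to 3573 FPKM with PBS and 1759 to 2546 with LPS, with 10 of the 14 called lower. Of other cells, some defining markers were at 0 in all 8 libraries, among them Gfap and Aqp4 (astrocytes), Mog (oligodendrocytes), Rbfox3 (neurons), Mpo and Elane (neutrophils) and Cd3e (T cells), and others were not. Endothelial markers summed to 11.1 to 30.3 FPKM with PBS and 8.6 to 20.6 with LPS, with Cldn5 and Kdr at 0, Flt1 at up to 14.4, and 3 of 4 tested called lower (Pecam1, Tek and Cdh5). Tek measured 4.15 to 11.3 and 0.81 to 4.68 FPKM. Cspg4, of oligodendrocyte precursors, measured 4.04 to 8.14 and 0.0499 to 1.62 FPKM, and Cd8a, of lymphocytes, 0.577 to 3.01 and 0.081 to 0.435, and both were called lower. The summed levels of 9 neuronal markers were 2.9 to 6.59 FPKM with PBS and 9.79 to 20.6 with LPS, mostly from Tubb3, which was called higher, while 6 of the 9 were at 0. Those of astrocytes were 1.71 to 4.72 FPKM with PBS and 0.823 to 5.54 with LPS, mostly from Slc1a3 and Aldoc. Of the 2 tested astrocyte markers 1 was called higher. Markers of border macrophages summed to 5.79 to 20.5 FPKM with PBS and 2.34 to 4.96 with LPS (Cd163 at 0), with 2 of 3 tested called lower. Those of oligodendrocytes summed to 22 to 37.6 and 9.36 to 23.2 (mostly Cnp, with Mog, Mobp, Mag and Sox10 at 0), with 1 of 2 tested called lower. Those of neutrophils summed to 0.121 to 1.59 and 1.29 to 5.22 (Mpo, Elane and Mmp8 at 0), and the 1 tested was called higher. The part of these cells in the results was not tested. The first feature is a division of the series into a smaller set of 7 libraries, which holds PBS 1, LPS 1 and LPS 2, and a larger set of 13, which holds PBS 2 to 4 and LPS 3 and 4. It was found in these data as the first principal component (63.2% of the variance left after the group means). Rn18s, the 18S ribosomal RNA, was listed at 0 in PBS 1 and LPS 2, while the other 6 libraries held 2747 to 6244 FPKM. A fit within the 13 libraries (3 with PBS, 2 with LPS) is given beside the named genes whose call it changed and beside several list counts. The relative depth of the 20 libraries, read from the commonest ratio of low values, spanned 1.00 to 1.80 (LPS 4 as the unit), and absolute depth is unknown.

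The second feature is scale. FPKM are shares of a library, so that a large increase of some genes can lower the others. The part of this in the decreases below was not tested. The 248 genes called higher by at least 2-fold took 2.48% to 3.71% of the FPKM sum in the PBS libraries and 15.3% to 18.2% in the LPS libraries. Il1b alone took 0.054% to 0.0754% and 2.51% to 3.43%. The median log2 difference of all tested genes was −0.37. It became −0.0037 once the libraries were rescaled by the median of their ratios to a common reference, a step built to bring it near 0. As deposited, 445 genes were called higher with LPS (5.02% of those tested) and 2421 lower (27.3%), by limma on log2(FPKM + 1) at an adjusted p under 0.05. After rescaling the counts were 1093 higher (12.3%) and 1200 lower (13.5%), and within the 13 libraries 836 higher (9.44%) and 3366 lower (38%). Every LPS library lay above every PBS library in 5.18% of tested genes and below in 26.3%. Of the 445 genes, 444 were also called higher after rescaling and 414 within the 13 libraries. Of the 2421 genes, 1200 were also called lower after rescaling and 2251 within the 13. The counts of gene lists below are therefore given on both scales, and are to be read against these shares of all tested genes. Differences below are log2(FPKM + 1), LPS minus PBS, with the SE of limma, and each adjusted p is limma's with Benjamini-Hochberg adjustment over 8858 genes. Levels are FPKM, in the order of libraries 1 to 4. In RNA from whole cultures, fewer cells that make a transcript and less transcript per cell cannot be told apart.

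**Figure D1:**
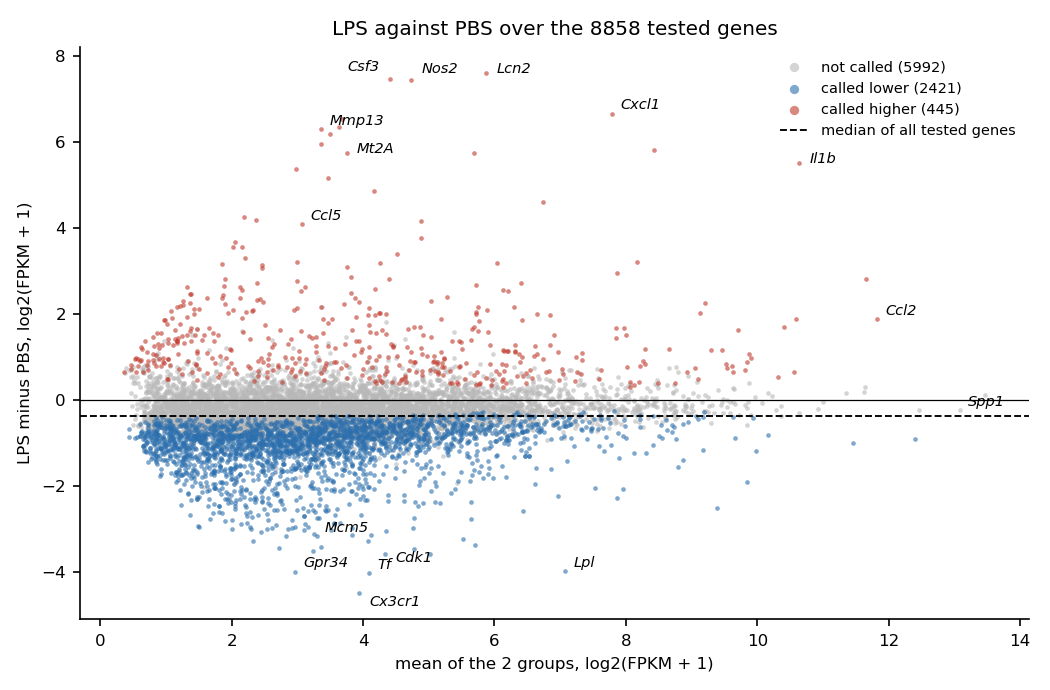
Each point is 1 of the 8858 tested genes, plotted by its mean over the PBS and LPS groups and its difference, both in log2(FPKM + 1); red and blue mark the 445 genes called higher and the 2421 called lower, and the dashed line is the median of all tested genes (−0.37). The increases reach further from 0 than the decreases, with 35 called at least 8-fold higher and 25 at least 8-fold lower.

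The receptor list held Tlr4 and Cd14 and also related receptor genes outside the complex described above (Cd180, Ly86, Itgam and Itgb2). Of these 6 tested genes none was called higher and 3 were called lower (Tlr4, Cd180 and Ly86), or 1 after rescaling (Cd180). Tlr4 measured 6.92, 14.4, 16.4 and 16.9 FPKM with PBS and 2.66, 2.35, 6.94 and 7.51 with LPS, a difference of −1.38 ± 0.51 (adjusted p = 0.0463). The PBS and LPS ranges overlapped, because PBS 1 lay among the higher LPS libraries, and the call was lost in 8 of 18 alternative fits, among them the rescaled one (adjusted p = 0.0743). Cd180, which encodes a TLR4-like receptor of B cells and macrophages, measured 20.9, 40.4, 44.1 and 36 and then 7.58, 10.8, 18.1 and 24.5 FPKM (−1.24 ± 0.37, adjusted p = 0.0142), a call lost without LPS replicate 1. Its partner Ly86, which encodes MD-1, was at 166, 140.1, 112 and 123 FPKM with PBS and 69.6, 71.4, 49.7 and 33.1 with LPS, without overlap (−1.3 ± 0.24, adjusted p = 0.000367; rescaled −0.87, adjusted p = 0.0768). Cd14 was abundant in both groups, at 1080, 1288, 799.9 and 1345 and 651, 640.5, 641 and 1083 FPKM, and its difference did not pass (−0.59 ± 0.23, adjusted p = 0.0604). Cd14 stayed uncalled in only 13 of 18 alternative fits. The integrin genes Itgam (−0.48 ± 0.56, adjusted p = 0.53) and Itgb2 (−0.16 ± 0.45, adjusted p = 0.802) overlapped widely between the groups. Ly96, the gene of MD-2, was listed at 0 in 7 of the 8 libraries and at 0.358 FPKM in LPS 2. Lbp, the gene of the LPS-binding protein, was listed at 0 in all 8. Whether these values come from the cells or from the gene annotation was not tested.

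Of 12 tested adaptors and kinases behind the receptor, 1 rose and 1 fell, or 2 and 0 after rescaling. Irak2, a kinase of the MyD88 arm, increased from 10.7, 14.5, 16.6 and 17.4 to 57.5, 26.5, 72.1 and 53.3 FPKM (1.69 ± 0.30, adjusted p = 0.000218). All LPS libraries exceeded all PBS libraries, with LPS 2 the lowest. Ticam2, which encodes TRAM, was at 4.57, 6.61, 7.41 and 8.74 FPKM with PBS and 3.49, 1.52, 4.62 and 4.96 with LPS (−0.8 ± 0.30, adjusted p = 0.0486), a call lost in 10 of 18 alternative fits, the rescaled one among them (adjusted p = 0.134). Traf6, the ubiquitin ligase downstream of the IRAK kinases, measured 11.6, 15.4, 13.8 and 13 and 19.3, 16.9, 22.6 and 21.9 FPKM. The groups did not overlap, yet the difference of 0.55 ± 0.29 missed the threshold (adjusted p = 0.161) and passed it after rescaling (0.96, adjusted p = 0.00185) and within the 13 libraries (0.63, adjusted p = 0.00118). The remaining members differed by −0.85 (Irak1) to 0.18 (Tab2), namely Irak1, Tab1, Tbk1, Irak4, Myd88, Map3k7, Tollip, Traf3 and Tab2, and none passed. Myd88 measured 25.3, 33.1, 31.4 and 33.2 and 23.5, 16.2, 32.5 and 34.7 FPKM, with LPS 2 below the other libraries (−0.24 ± 0.28, adjusted p = 0.519). Within the 13 libraries Irak1 and Tab1 were also called lower, at −0.62 and −0.39. Irak1 stayed uncalled in only 11 of 18 alternative fits, and Tab1 in 17.

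Other pattern receptors changed in both directions. Of 17 tested, 4 rose (Nod2, Trem1, Clec4e and Sting1) and 2 fell (Tlr3 and Rig1), and after rescaling 5 rose and 1 fell, and within the 13 libraries 7 and 3. The calls of Sting1 and Rig1 were each lost on leaving out at least 2 single libraries in turn, among them PBS replicate 3. Tlr3, which senses double-stranded RNA, dropped from 5.75, 8.57, 9.15 and 8.25 FPKM to 0.939, 0.0595, 1.36 and 0.755 (−2.37 ± 0.29, adjusted p = 4.91e-06), with every LPS library below every PBS library. Nod2, a sensor of bacterial muramyl dipeptide, was under 1 FPKM in all PBS libraries and at 0.998, 1.1, 3.67 and 4.25 with LPS (1.28 ± 0.38, adjusted p = 0.0138), with the higher values in LPS 3 and 4. Trem1, a receptor that amplifies TLR signals, increased from 62.7, 42.7, 22.9 and 61 to 131, 101, 79.6 and 92.1 FPKM (1.15 ± 0.37, adjusted p = 0.0229), a call lost within the 13 libraries (adjusted p = 0.084) and without PBS replicate 2, PBS replicate 3 or LPS replicate 1. The call of Clec4e was lost within the 13 libraries (adjusted p = 0.0523) and without PBS replicate 3 or LPS replicate 1.

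**Figure D2:**
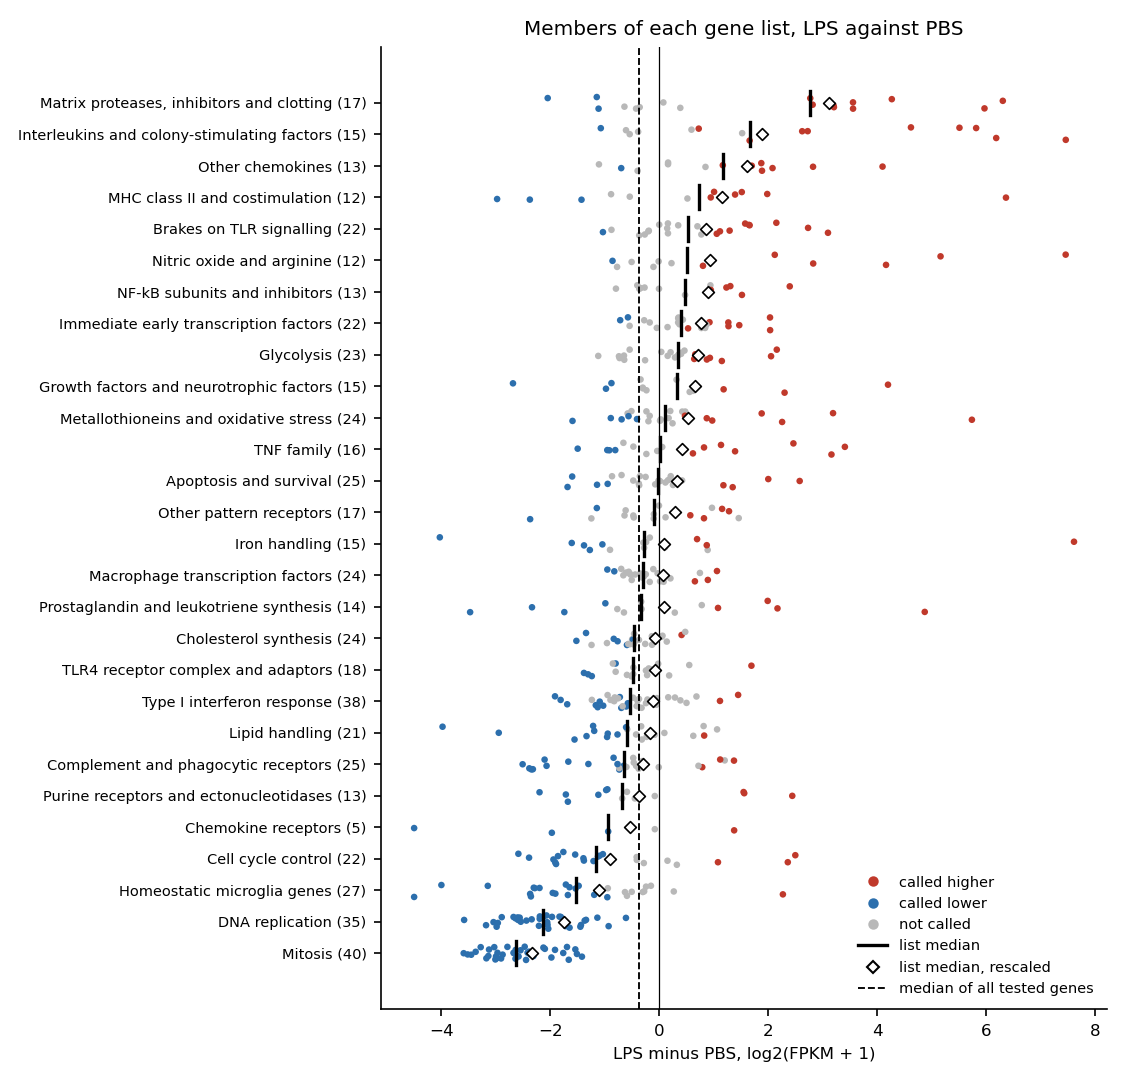
Each row is a gene list with at least 5 tested members (number in brackets), and each point a member by its log2(FPKM + 1) difference, LPS minus PBS; black bars are list medians, open diamonds the medians after rescaling, and the dashed line the median of all tested genes. All 40 mitosis genes and all 35 DNA replication genes are called lower, while matrix proteases and interleukins hold the highest medians.

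Of the 5 tested inhibitors of NF-kB 4 were called higher (Nfkbiz, Nfkbia, Bcl3 and Nfkbib), and of the 8 subunits and kinases 1 was (Map3k8), or 4 after rescaling. Nfkbia, the inhibitor resynthesised by NF-kB itself, measured 77.1, 66.2, 65.1 and 70.8 FPKM with PBS and 226, 229, 172 and 184 with LPS (1.52 ± 0.12, adjusted p = 3.44e-08). Nfkbiz, a nuclear cofactor required for secondary targets such as Lcn2 and Il6, went from 10.6, 16.3, 19.3 and 17.3 to 65.2, 80.6, 110.2 and 94.1 FPKM (2.39 ± 0.28, adjusted p = 2.3e-06). Neither gene overlapped between the groups. Rela, which encodes the p65 subunit, measured 30.4, 39.5, 30.4 and 32.3 and 33.1, 27.9, 35.3 and 35.6 FPKM (adjusted p = 0.981) and was called higher after rescaling (0.42, adjusted p = 0.0116).

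Brakes on the pathway were called higher in 9 of 22 tested genes and lower in 1, or 13 and 1 after rescaling. The largest rise was that of Socs3, which blocks JAK-STAT signals, from 2.18, 3.92, 2.77 and 3.85 to 32, 9.57, 64 and 66.5 FPKM (3.1 ± 0.59, adjusted p = 0.000536). LPS 2 stood far below the other LPS libraries but still above every PBS library. Cish, another SOCS family member, changed from 1.29, 0.719, 0.773 and 1.29 to 10.9, 9.65, 13.6 and 15.8 FPKM (2.73 ± 0.28, adjusted p = 6.91e-07). Zc3h12a, the RNase Regnase-1 that degrades cytokine mRNAs, rose by 2.15 ± 0.25 (adjusted p = 2.26e-06), and Zfp36, the mRNA-destabilising protein tristetraprolin, by 1.65 ± 0.16 (adjusted p = 3.21e-07). Dusp1, a phosphatase of p38 and JNK, measured 32.6, 33.8, 30.7 and 36.9 and then 110.2, 78.3, 105 and 118 FPKM (1.58 ± 0.20, adjusted p = 5.5e-06). Irak3, the inhibitory IRAK-M, was at 1.48, 3.51, 2.52 and 4.34 and 6.16, 6.18, 8.86 and 13.9 FPKM (1.29 ± 0.29, adjusted p = 0.00238). Pdlim2, a ligase that removes nuclear p65, was the member that fell, from 13.1, 11.8, 10.1 and 11.6 to 5.48, 4.54, 3.97 and 6.996 FPKM (−1.03 ± 0.19, adjusted p = 0.000442).

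The 3 tested chemokines that attract neutrophils were among the 20 largest increases. Cxcl1 measured 24.8, 18.1, 9.75 and 35.5 FPKM with PBS and 2078, 2337, 2321 and 1798 with LPS (6.66 ± 0.28, adjusted p = 3.77e-12). Cxcl2 rose from 5.78, 6.54, 1.45 and 12.6 to 234, 402, 409 and 362 FPKM (5.75 ± 0.45, adjusted p = 2.31e-08), and Cxcl3 from 0.931, 0.132, 0.237 and 0 to 156, 95.6, 154 and 87 (6.55 ± 0.30, adjusted p = 1.2e-11). In all 3 every LPS library was far above every PBS library, and in proportion to their level the PBS libraries varied more than the LPS libraries. The upstream sequences of Cxcl1 and Cxcl2 are shown because both have paired matches to a loose NF-kB motif (3 G, any 5 bases and 2 C, on either strand) shortly before the start of transcription. They are the 250 bases before the RefSeq start in build GRCr8, from chr14:17479322-17479571 on the minus strand and chr14:17467256-17467505 on the minus strand, and capitals mark the matches.
Cxcl1: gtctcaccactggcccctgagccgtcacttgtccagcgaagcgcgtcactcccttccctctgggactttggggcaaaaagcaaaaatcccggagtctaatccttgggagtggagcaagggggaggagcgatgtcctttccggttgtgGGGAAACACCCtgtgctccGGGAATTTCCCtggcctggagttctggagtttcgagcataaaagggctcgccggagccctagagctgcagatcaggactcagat
Cxcl2: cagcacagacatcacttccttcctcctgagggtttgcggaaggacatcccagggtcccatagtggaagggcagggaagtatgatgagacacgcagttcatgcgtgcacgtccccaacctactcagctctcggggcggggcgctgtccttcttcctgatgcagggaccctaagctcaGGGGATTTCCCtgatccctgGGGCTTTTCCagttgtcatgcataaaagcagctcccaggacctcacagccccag
A match of this kind is common: it was present in 8 of the 13 RefSeq promoters found for the 20 largest increases (61.5%), in 66.3% of the promoters of tested genes and in 48.5% of all RefSeq promoters, each over 300 bases (250 before and 50 after the start). The share among the increases was thus no higher than among all tested genes.

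A different pair of motifs was more frequent in those 13 promoters. The AP-1 motif TGANTCA was present in 4 (30.8%), against 4.85% of tested genes and 7.33% of all RefSeq promoters. The TATA box, searched as TATAAA, was present in 6 (46.2%), against 6.41% and 14.3%. The 4 genes with AP-1 matches, Mmp13, Il1a, Mt2A and Mmp3, were all among the 6 with a TATA match, the other two being Il1b and Inhba. The upstream 250 bases of Mmp13, Il1a and Mt2A are printed with AP-1 and TATA matches and, in Mt2A, a kB match in capitals. They come from chr8:12782579-12782828 on the plus strand, chr3:136990018-136990267 on the minus strand and chr19:10838709-10838958 on the minus strand (GRCr8).
Mmp13: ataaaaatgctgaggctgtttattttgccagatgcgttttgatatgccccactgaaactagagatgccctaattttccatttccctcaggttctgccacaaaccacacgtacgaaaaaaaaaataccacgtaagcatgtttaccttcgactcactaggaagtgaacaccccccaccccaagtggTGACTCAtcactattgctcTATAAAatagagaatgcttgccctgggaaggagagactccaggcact
Il1a: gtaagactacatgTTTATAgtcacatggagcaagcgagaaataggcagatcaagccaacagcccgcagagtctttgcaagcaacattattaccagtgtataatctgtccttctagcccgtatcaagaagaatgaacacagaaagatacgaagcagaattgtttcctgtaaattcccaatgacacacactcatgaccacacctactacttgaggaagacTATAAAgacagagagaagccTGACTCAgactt
Mt2A: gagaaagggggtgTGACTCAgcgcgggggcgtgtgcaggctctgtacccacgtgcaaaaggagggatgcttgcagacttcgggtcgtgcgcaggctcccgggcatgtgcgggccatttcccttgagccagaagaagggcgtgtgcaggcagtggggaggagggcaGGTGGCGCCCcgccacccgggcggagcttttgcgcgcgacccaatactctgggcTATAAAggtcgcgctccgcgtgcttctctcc
In Mmp13 the AP-1 match began 66 bases and the TATA match 47 bases before the start. In Il1a the AP-1 match began at −12 and the TATA matches at −237 and −32, and in Mt2A these were −237 and −31. The layout thus differed between these genes. Matches are letters in a window and not measured sites, and the table of promoters was not complete.

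Chemokines for monocytes and lymphocytes rose in 7 of 13 tested genes and fell in 1, or 8 and 0 after rescaling. Ccl5, which attracts T cells and monocytes, went from 0, 1.73, 0.562 and 2.11 to 40.3, 38.6, 25.6 and 25 FPKM (4.1 ± 0.41, adjusted p = 5.56e-07). Ccl3 was already abundant, at 1460, 1183, 874 and 1328 FPKM, and reached 8739, 11560, 7486 and 6634 (2.82 ± 0.21, adjusted p = 1.83e-08). Ccl20, the ligand of CCR6, was listed at 0 in all 4 PBS libraries and at 5.11, 4.93, 2.12 and 1.81 FPKM with LPS. The monocyte attractants were abundant with PBS, at 1231 to 2805 FPKM for Ccl2, 471 to 1160 for Ccl12 and 482 to 1250 for Ccl7, and rose by 1.89 ± 0.23 (adjusted p = 5.29e-06), 1.87 ± 0.37 (adjusted p = 0.000673) and 1.7 ± 0.31 (adjusted p = 0.000324). Of the 2 tested interferon-linked chemokines, Cxcl11 rose from 0.298, 0.676, 0.151 and 1.51 to 2.89, 3.73, 2.35 and 3.49 FPKM (1.36 ± 0.36, adjusted p = 0.00664). Cxcl10 measured 112, 109.9, 45.9 and 73.8 with PBS and 61.4, 40.3, 38.9 and 27.5 with LPS (−0.98 ± 0.31, adjusted p = 0.022), with overlap, and lost its call after rescaling (−0.55, adjusted p = 0.354) and without PBS replicate 1, PBS replicate 2 or LPS replicate 4.

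Of 5 tested chemokine receptors, 3 fell and 1 rose, or 2 and 1 after rescaling. Cx3cr1, the receptor for the neuronal chemokine fractalkine, had the largest decrease on this scale, from 39.3, 96.1, 62.9 and 76.6 to 0.383, 4.1, 1.36 and 3.49 FPKM (−4.5 ± 0.50, adjusted p = 1.7e-06). Ccrl2, which binds chemerin without signalling, rose from 23.9, 23.6, 22.3 and 27.5 to 67.6, 60.8, 67 and 63 (1.37 ± 0.17, adjusted p = 6.58e-06). Cxcr4, the receptor for Cxcl12, was lower as deposited (−0.94 ± 0.27, adjusted p = 0.0126) and not called after rescaling (−0.54, adjusted p = 0.273). Ccr1, a receptor for Ccl3 and Ccl5, did not pass (−0.08 ± 0.35, adjusted p = 0.872).

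Interleukins and colony-stimulating factors rose in 9 of 15 tested genes and fell in 1, or 10 and 1 after rescaling. Il1b and Il1a, the 2 interleukin-1 genes, reached 10030, 8268, 12070 and 12710 and 2233, 1731, 3141 and 2840 FPKM with LPS from 208, 271, 193 and 268 and 41.3, 33.2, 25.7 and 88.4 with PBS (5.51 ± 0.21 and 5.81 ± 0.37). Both colony-stimulating factors for granulocytes, Csf3 and Csf2, were under 2 FPKM in every PBS library and at 230.4, 227, 312 and 298 and 79.3, 105, 113 and 77.2 FPKM with LPS, whereas Csf1, which maintains microglia, did not pass (−0.54 ± 0.26, adjusted p = 0.121). Ebi3, the shared subunit of IL-27 and IL-35, increased from 37, 34, 27.7 and 28.2 to 252, 238, 195 and 178 FPKM (2.72 ± 0.18, adjusted p = 2.26e-09). Il23a, the p19 subunit of IL-23, measured 0.475, 1.5, 0.725 and 0.0862 and then 21.1, 7.78, 7.01 and 5.39 FPKM (2.62 ± 0.47, adjusted p = 0.000297), highest in LPS 1. Its partner subunit gene Il12b was at 0 in 7 of 8 libraries and at 0.447 FPKM in LPS 3. Il6 reached 551, 396, 559.5 and 544 FPKM from 23.8, 14.4, 13 and 33.6 (4.62 ± 0.27, adjusted p = 6.36e-10). Il16, a lymphocyte attractant, was the member that fell (−1.07 ± 0.15, adjusted p = 2.6e-05).

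In the TNF family 7 of 16 tested members rose and 4 fell, or 8 and 2 after rescaling. The share that fell as deposited was near that of all tested genes (27.3%), while 5.02% of all tested genes rose. Tnf itself measured 58.9, 52.3, 34.9 and 46.8 FPKM with PBS and 118, 148, 86.3 and 80.8 with LPS (1.13 ± 0.24, adjusted p = 0.00135). Tnfrsf1b, which encodes TNF receptor 2, rose from 2.42, 6.99, 7.17 and 7.07 to 48.8, 39.2, 100.4 and 110.5 FPKM (3.4 ± 0.50, adjusted p = 3.77e-05), with LPS 3 and 4 above LPS 1 and 2. Tnfrsf14, the receptor HVEM, was under 1 FPKM in every PBS library and at 9.91, 9.1, 13.2 and 7.14 with LPS (3.16 ± 0.19, adjusted p = 1.02e-09). The ligand gene Lta, encoding lymphotoxin alpha, went from under 0.1 FPKM in all PBS libraries to 2.94, 11.1, 4.2 and 3.34 (2.46 ± 0.40, adjusted p = 0.00011). Tnfrsf11a, the receptor RANK, fell from 6.12, 8.98, 7.51 and 9.39 to 2.43, 0.963, 2.69 and 2.998 FPKM (−1.5 ± 0.31, adjusted p = 0.000955).

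Genes of the interferon arm did not rise as a group. Of 38 tested genes of the type I interferon response, 2 rose (Oasl and Usp18, the second named after its values were seen) and 11 fell. After rescaling 3 rose and 6 fell, and within the 13 libraries 2 rose and 16 fell. The share that fell was close to that of all tested genes (27.3%). The list median was −0.53, beside −0.37 over all tested genes, and −0.12 after rescaling. Ifnb1, interferon beta, measured 0.754, 0.321, 0.863 and 0.718 FPKM with PBS and 0.229, 2.54, 4.26 and 1.15 with LPS, and did not pass (0.68 ± 0.40, adjusted p = 0.201), although it did without LPS replicate 1, the lowest library. Ifnb1 stayed uncalled in 15 of 18 alternative fits. Mx1, an antiviral GTPase, was at 27.3, 70.1, 43.4 and 77.5 with PBS and 13.4, 5.79, 28.7 and 15 with LPS (−1.81 ± 0.54, adjusted p = 0.0147). PBS 1 and LPS 3 overlapped, and the call was lost without PBS replicate 4 or LPS replicate 2. Ifit2, which blocks translation of viral RNA, fell by 1.91 ± 0.50 (adjusted p = 0.00653), and Mx2 by 1.69 ± 0.49 (adjusted p = 0.0131), the latter lost without LPS replicate 2. The transcription factor gene Irf8 fell from 27.6, 56.4, 35.5 and 41.7 to 13.1, 11.6, 27.4 and 23.7 FPKM (−1.09 ± 0.35, adjusted p = 0.0237), also after rescaling. The call of Irf8 was lost without PBS replicate 2, PBS replicate 4, LPS replicate 1 or LPS replicate 2. Oasl, an oligoadenylate synthetase-like protein, increased from 119, 141, 121 and 168 to 395, 259, 466 and 401 FPKM (1.45 ± 0.27, adjusted p = 0.000351).

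Transcription factors of the first wave rose in 7 of 22 tested genes and fell in 2, or 10 and 1 after rescaling. Batf, an AP-1 partner, measured 10.6, 8.82, 7.41 and 6.86 and 50.8, 36.1, 34 and 30.3 FPKM (2.03 ± 0.19, adjusted p = 3.09e-07), and Ier3, a survival gene, 349.9, 277, 186 and 295 and 1370, 1029, 1168 and 919 (2.03 ± 0.20, adjusted p = 3.76e-07). Of the lineage factors, 3 of 24 rose (Cebpd, Ets2 and Hif1a) and 2 fell, Cebpe among them, with the same counts after rescaling, though Hif1a (adjusted p = 0.0491) lost its call in 9 of 18 alternative fits, so that most lineage factors were not called. Within the 13 libraries 4 rose and 5 fell. Cebpd, an acute-phase factor, was at 17.7, 21.6, 21 and 18.6 and 44.1, 39.4, 43.2 and 41.7 FPKM, with little spread inside either group (1.06 ± 0.13, adjusted p = 4.93e-06).

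Genes for nitric oxide and arginine rose in 6 of 12 tested members and fell in 1, or 7 and 0 after rescaling. Nos2, the inducible nitric oxide synthase, reached 204, 169, 476 and 631 FPKM from 0.519, 1.08, 0.319 and 1.66 (7.46 ± 0.51, adjusted p = 4.17e-09). Slc7a2, the arginine transporter CAT2, went from 0.293, 0.606, 0.958 and 1.06 to 33.1, 34.1, 106 and 106 FPKM (5.16 ± 0.51, adjusted p = 4.33e-07). In both genes LPS 3 and 4 lay well above LPS 1 and 2, along the division of the library sets, and within the 13 libraries the differences were 8.14 and 5.84. Arg1, which turns arginine into ornithine, rose from under 1 FPKM to 4.48, 5.55, 19.8 and 8.6 (2.82 ± 0.51, adjusted p = 0.000302), and Ass1, which regenerates arginine from citrulline, to 3.84, 3.65, 4.68 and 6.44 (2.12 ± 0.21, adjusted p = 3.99e-07). Gch1, which makes the Nos2 cofactor tetrahydrobiopterin, increased from 51.9, 50.8, 48.2 and 63.4 to 86.9, 93.1, 95.6 and 99.5 FPKM (0.8 ± 0.15, adjusted p = 0.000312). Spr, which completes the same cofactor, fell from 13.4, 10.7, 10.8 and 10.8 to 7.83, 4.36, 5.71 and 5.85 (−0.86 ± 0.18, adjusted p = 0.00122) and was not called after rescaling (adjusted p = 0.163). IRG1, which makes itaconate, measured 5.9, 7.03, 2.68 and 7.69 and then 105, 58.5, 161 and 177 FPKM (4.16 ± 0.47, adjusted p = 1.72e-06).

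**Figure D3:**
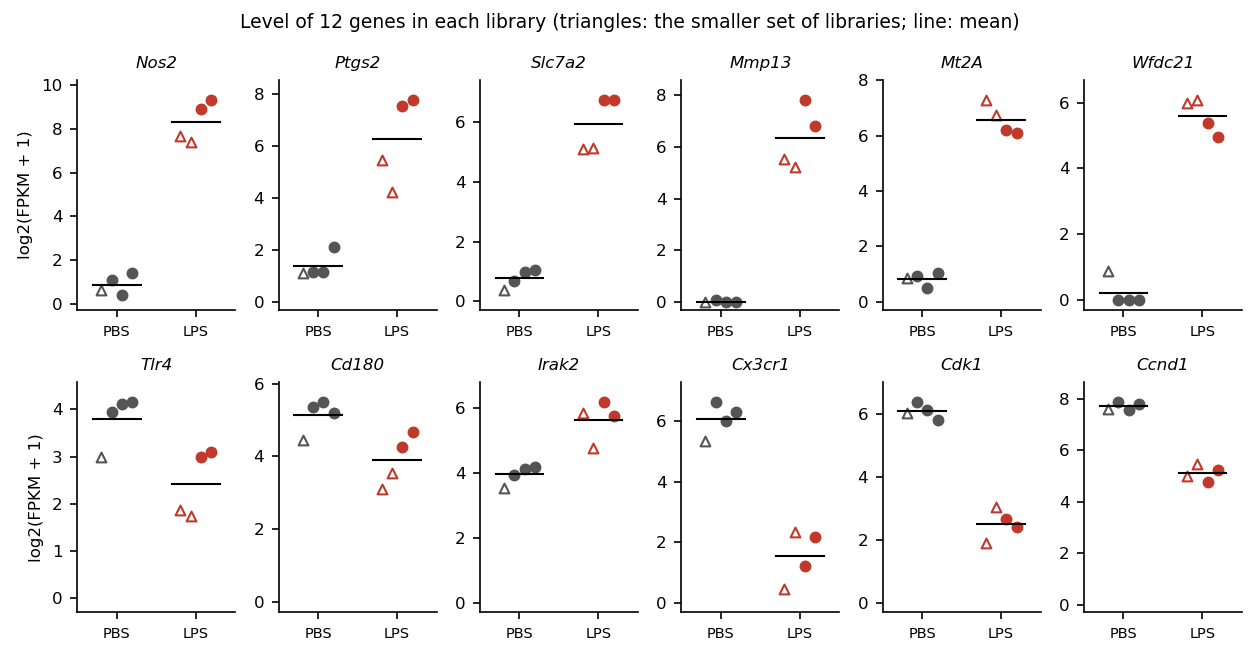
Each point is 1 library in log2(FPKM + 1), open triangles the smaller set (PBS 1, LPS 1 and LPS 2) and filled circles the larger one, with a line at the group mean. Nos2, Ptgs2, Slc7a2 and Mmp13 are higher in LPS 3 and 4 than in LPS 1 and 2, Mt2A and Wfdc21 are lower there, and Tlr4 has a PBS library within the LPS range.

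Prostaglandin genes included several that rose, and leukotriene genes did not. Among 10 tested prostaglandin genes 4 rose and 1 fell, with the same counts after rescaling. Among 4 genes of leukotriene synthesis and lipoxygenases (Alox5ap, Alox5, Lta4h and Alox15) 3 fell and 0 rose, also after rescaling. Within the 13 libraries 5 prostaglandin genes rose and 3 fell. Ptgs2, the inducible cyclooxygenase, went from 1.21, 1.23, 1.23 and 3.37 to 43.8, 18.1, 187 and 217 FPKM (4.87 ± 0.74, adjusted p = 5.66e-05), with LPS 3 and 4 far above LPS 1 and 2 (within the 13 libraries 6.18). Ptges, the synthase that makes prostaglandin E2 from its product, measured 0, 0, 0 and 0.212 FPKM with PBS and 4.05, 2.41, 4.39 and 4.33 with LPS (2.17 ± 0.34, adjusted p = 6.43e-05), and the receptor gene Ptger2 rose from 9.27, 8.56, 4.95 and 14.1 to 43.3, 21.1, 47.2 and 45.5 (1.99 ± 0.34, adjusted p = 0.000184). Alox5ap, the protein that presents arachidonate to 5-lipoxygenase, fell from 104, 87.7, 66.4 and 88.1 to 13, 3.87, 4.8 and 8.35 FPKM (−3.47 ± 0.30, adjusted p = 9.64e-08). Alox5, the lipoxygenase itself, fell from 14.4, 15.4, 13.4 and 15.9 to 3.81, 2.42, 6.17 and 3.15 (−1.74 ± 0.28, adjusted p = 9.14e-05), and Lta4h, which makes leukotriene B4, from 26.6, 47.9, 30.3 and 36.9 to 2.83, 5.53, 6.91 and 11.6 (−2.33 ± 0.31, adjusted p = 1.12e-05). Alox15, another lipoxygenase gene, was lower in every LPS library than in every PBS library but missed the threshold (−0.65 ± 0.31, adjusted p = 0.114). It was called lower with library quality weights (adjusted p = 0.0112), with a replicate block (0.0487) and with only the 2 groups (0.0327). In 15 of 18 alternative fits it stayed uncalled. Pla2g4a, which releases arachidonate for both branches, was called lower (−0.99 ± 0.31, adjusted p = 0.0206), a call lost on leaving out any 1 of PBS replicates 2, 3 and 4 and LPS replicates 1 and 2.

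Matrix proteases and clotting genes were called higher in 9 of 17 tested members and lower in 3, or 10 and 2 after rescaling, with a median of 2.77 (rescaled 3.12). Mmp13, a collagenase, measured 0, 0.0685, 0 and 0 FPKM with PBS and 44.6, 36.4, 220.1 and 109 with LPS (6.3 ± 0.46, adjusted p = 1.2e-08). F3, tissue factor, the trigger of coagulation, rose from 0.236, 0.252, 0.18 and 0.451 to 60.9, 58.3, 96.8 and 112 FPKM (5.97 ± 0.29, adjusted p = 3.11e-11). Mmp9, a gelatinase, measured 78.2, 58.1, 137 and 104 and then 625, 671, 1120 and 1037 FPKM (3.2 ± 0.34, adjusted p = 8.85e-07). Its elastase relative Mmp12 went from 17.2, 18.8, 18.5 and 26.2 to 178, 118, 199.8 and 315 (3.2 ± 0.30, adjusted p = 1.99e-07), and the membrane protease Mmp14 from 8.33, 6.7, 6.65 and 5.81 to 43, 47.7, 56.2 and 73.8 (2.81 ± 0.33, adjusted p = 2.51e-06). Each of these had LPS libraries wholly above the PBS libraries. The inhibitor gene Serpinb2, which blocks the plasminogen activators, was at 0 with PBS and at 13.6, 1.31, 29.5 and 17.5 FPKM with LPS, lowest in LPS 2. Plau, the plasminogen activator urokinase, fell from 224, 458, 336 and 446 to 75.3, 45.7, 111 and 134 FPKM (−2.05 ± 0.42, adjusted p = 0.000896), and Mmp2 fell by 1.15 ± 0.31 (adjusted p = 0.00732).

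Iron genes changed in opposite directions, 3 of 15 higher and 5 lower, or 4 and 5 after rescaling. Lcn2, which binds bacterial siderophores, had the largest increase on this scale, from 2.15, 4.38, 3.65 and 2.58 to 595, 1036, 869 and 761 FPKM (7.61 ± 0.21, adjusted p = 1.07e-14). Within the 13 libraries Nos2 rose more (8.14 against 7.51). With a pseudocount of 0.1 so did Csf3 (9.5 against 7.97) and other genes that were low with PBS, among them Mmp13, Cxcl3 and Nos2. Tf, transferrin, the iron carrier of plasma, fell from 53.6, 79.9, 54.1 and 82.6 to 2.44, 2.29, 4.61 and 3.56 FPKM (−4.03 ± 0.31, adjusted p = 2.31e-08). The iron exporter gene Slc40a1 (ferroportin) fell by 1.38 ± 0.32 (adjusted p = 0.00256) and the transferrin receptor gene Tfrc by 1.04 ± 0.26 (adjusted p = 0.00438), and both calls held after rescaling. Hmox1, which frees iron from haem, rose from 632, 536, 592 and 967 to 1229, 961, 1082 and 1707 FPKM (0.87 ± 0.29, adjusted p = 0.0259), a call lost without PBS replicate 2, PBS replicate 3, LPS replicate 1 or LPS replicate 4. Metallothionein and oxidative stress genes rose in 7 of 24 tested members and fell in 5, or 10 and 2 after rescaling. Among metallothioneins, which bind zinc and copper, Mt2A went from 0.819, 0.93, 0.417 and 1.04 to 154, 105, 72 and 67.2 FPKM (5.74 ± 0.43, adjusted p = 1.53e-08) and Mt1 from 8.74, 2.52, 7.999 and 2.9 to 74.4, 64.7, 34.3 and 46.5 (3.19 ± 0.45, adjusted p = 2.6e-05). In both, LPS 1 and 2 were the higher pair, as in Wfdc21, a secreted protease inhibitor-like protein, which went from 0.852, 0, 0 and 0 to 62.9, 66.5, 40.4 and 29.9 FPKM (5.38 ± 0.33, adjusted p = 1.16e-09). Sod2, the mitochondrial superoxide dismutase, was nearly uniform within groups, at 250.4, 235, 295 and 304 and 1183, 1304, 1356 and 1315 FPKM (2.25 ± 0.13, adjusted p = 5.7e-10), and Cybb, the catalytic subunit of the phagocyte NADPH oxidase, fell from 117, 199.9, 175 and 159 to 37.8, 26, 96.2 and 78.5 (−1.59 ± 0.39, adjusted p = 0.00392).

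Of 27 tested genes listed for resting microglia, 17 fell and 1 rose, or 16 and 1 after rescaling and 21 and 1 within the 13 libraries. The list median was −1.53 (rescaled −1.10) beside −0.37 for all tested genes. The list is broad, and not every member, Gpr84 for one, is specific to the resting state. Gpr34, a lysophosphatidylserine receptor, fell from 17.4, 31.2, 36.2 and 36.5 to 0.881, 0.233, 1.47 and 1.23 FPKM (−4.0 ± 0.38, adjusted p = 3.14e-07), and Gpr183, an oxysterol receptor, from 51.3, 46.2, 54 and 48.7 to 4.63, 6.62, 3.003 and 5.41 (−3.15 ± 0.20, adjusted p = 1.49e-09). Csf1r, the receptor on which microglial survival depends, dropped from 424, 596, 487 and 540.3 to 81, 86.2, 119.8 and 137 FPKM (−2.28 ± 0.20, adjusted p = 9.82e-08). Trem2, a lipid-sensing receptor, fell from 111, 104, 80.0 and 158 to 19.9, 24.3, 14.1 and 25.8 FPKM (−2.37 ± 0.24, adjusted p = 6.91e-07). Its signalling adaptor Tyrobp did not pass (−0.24 ± 0.25, adjusted p = 0.473), and Aif1, the marker Iba1, measured 377, 304, 275 and 340.5 and 379.9, 514, 312 and 371 FPKM with no call (0.27 ± 0.18, adjusted p = 0.277). The classical markers P2ry12 and Tmem119 were low before treatment, at 4.51, 3.7, 3.7 and 5.84 and 14.5, 22.9, 19.7 and 19.1 FPKM, and both fell (−2.2 ± 0.20 and −1.48 ± 0.38; adjusted p = 1.99e-07 and adjusted p = 0.00588).

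Other members of that list called lower were Gpr84, Sparc, Ctsd, P2ry13, Entpd1, Tgfbr1, Rgs10 and Cst3, by −1.19 (Cst3) to −2.35 (Gpr84), of which Cst3 was not called after rescaling (adjusted p = 0.158). Tgfbr1, a receptor chain for TGF-beta, which maintains microglial identity, measured 16, 47.6, 55.9 and 46.2 and 6.79, 5.61, 22.2 and 18.3 FPKM, and its call (adjusted p = 0.0243) was lost on leaving out any of 5 single libraries (PBS replicates 2, 3 or 4, LPS replicates 1 or 2). Not called were Tgfbr2, Il6r, P2ry6, Sall1, Tgfb1, Jun, Selplg, Aif1 and Tyrobp. Of these, Tgfbr2 (−0.27), Il6r (−0.42), Sall1 (−0.72) and Tyrobp (−0.46) were called lower within the 13 libraries. Sall1 stayed uncalled in 13 of 18 alternative fits, Il6r in 14 and Tyrobp in 15. Siglec5, an inhibitory sialic acid receptor, was the member that rose, from 3.47, 16.1, 3.35 and 3.44 to 20.6, 46.5, 27.1 and 26.4 FPKM (2.27 ± 0.50, adjusted p = 0.00166), with PBS 2 well above the other PBS libraries.

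Receptors for purines, through which microglia sense ATP and adenosine, changed in both directions. Of 13 tested genes 6 fell and 3 rose, or 5 and 3 after rescaling. The ADP receptors P2ry12, P2ry13 and P2ry1 fell, the last from 0.889, 1.88, 2.31 and 3.27 to 0.441, 0.349, 0.886 and 0.503 FPKM (−0.95 ± 0.30, adjusted p = 0.0207; lost without PBS replicate 3, PBS replicate 4 or LPS replicate 2), and Entpd1, the enzyme CD39 that degrades ATP, fell by 1.68 ± 0.22 (adjusted p = 8.69e-06). The adenosine receptor gene Adora2a rose from 1.05, 0.43, 0.0642 and 0.535 to 5.78, 3.44, 9.96 and 11.6 FPKM (2.44 ± 0.31, adjusted p = 8.22e-06), with all LPS libraries above all PBS libraries. Adora1, another adenosine receptor gene, went from 0, 0, 0 and 0.124 to 2.01, 0.75, 2.51 and 3.57 FPKM (1.56 ± 0.37, adjusted p = 0.00293), and P2ry2, a receptor for ATP and UTP, rose from 8.92, 8.09, 11.8 and 9.86 to 30.7, 22.4, 29.4 and 39.7 (1.55 ± 0.26, adjusted p = 0.00014).

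Complement and phagocytic genes fell in 12 of 25 tested members and rose in 3. After rescaling 6 fell and 5 rose, so that the balance of this list depended on the scale. The C1q chain genes fell under both, C1qa from 12.3, 12.6, 10.03 and 6.23 to 2.03, 0.101, 2.58 and 0.638 FPKM (−2.38 ± 0.40, adjusted p = 0.000157), C1qb by 2.34 ± 0.28 (adjusted p = 4.46e-06) and C1qc by 2.51 ± 0.29 (adjusted p = 2.69e-06). C3ar1, the receptor for C3a, rose from 20.1, 30.7, 29.2 and 23.2 to 39.4, 90.9, 65.2 and 88.4 FPKM (1.37 ± 0.29, adjusted p = 0.00126). The inhibitory Fc receptor gene Fcgr2b rose from 95.5, 88.8, 83.4 and 67.2 to 208, 161, 191 and 169.5 (1.12 ± 0.15, adjusted p = 1.35e-05).

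Of 4 tested class II antigen presentation genes 3 fell, also after rescaling: RT1-DMa, a chaperone that loads peptides, from 80.9, 84.1, 60.3 and 74.7 to 9.35, 7.73, 9.2 and 8.22 FPKM (−2.97 ± 0.17, adjusted p = 3.46e-10), its partner RT1-DMb by 2.37 ± 0.23 (adjusted p = 3.25e-07) and the protease Ctss by 1.43 ± 0.10 (adjusted p = 1.2e-08). RT1 genes are a family of close copies, and reads shared between them make their values uncertain. Of 8 tested genes of costimulation and related surface proteins, Cd69 and Cd274 among them, 6 rose and 0 fell, or 7 and 0 after rescaling. Cd69, an early activation antigen, was under 1 FPKM with PBS and at 127, 88.5, 84.9 and 143 FPKM with LPS. Cd274, the checkpoint ligand PD-L1, rose from 4.97, 7.25, 7.31 and 10.7 to 22.7, 14.4, 47.3 and 64.6 (1.98 ± 0.48, adjusted p = 0.00371) and Cd86 from 53.2, 67.1, 55.1 and 61.5 to 106, 115, 126 and 133 (1.01 ± 0.29, adjusted p = 0.0131).

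Cell cycle genes fell together. All 40 tested mitosis genes were called lower, against 27.3% of tested genes, with differences from −1.42 to −3.59 and a median of −2.62, and all 40 remained called after rescaling (median −2.33). Of the 35 DNA replication genes, 35 were called lower (median −2.13), and 33 after rescaling, without Gins2 and Gins4, and 34 within the 13 libraries, without Gins3 (all 3 named after their values were seen). In every gene of both lists all LPS libraries lay below all PBS libraries, which was so for 26.3% of tested genes. Cdk1, the kinase that drives entry into mitosis, fell from 65.5, 82.4, 68.7 and 55.9 to 2.78, 7.21, 5.4 and 4.31 FPKM (−3.59 ± 0.35, adjusted p = 3.32e-07), and Plk1, a kinase of the spindle, from 24.9, 41.3, 34.4 and 24.3 to 1.28, 1.61, 2.26 and 1.97 (−3.51 ± 0.35, adjusted p = 5.6e-07). Rrm2, which makes deoxynucleotides, fell from 85.5, 122, 120.0 and 106 to 4.28, 7.81, 12.4 and 9.93 FPKM (−3.58 ± 0.27, adjusted p = 1.37e-08), and Mcm5, a subunit of the replicative helicase, from 17.2, 37.5, 28.5 and 26 to 0.653, 1.07, 3.69 and 4.17 (−3.18 ± 0.45, adjusted p = 2.67e-05).

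Of the 20 largest decreases, 8 were mitosis genes (Cdk1, Plk1, Spc25, Ube2c, Ccna2, Ccnb2, Cdc20 and Cdca3) and 2 were DNA replication genes (Rrm2 and Mcm5). Among those in no list, Ube2t, a ubiquitin-conjugating enzyme of the Fanconi anaemia repair pathway, fell from 13.5, 14.9, 14.5 and 14.4 to 0.129, 0.407, 1.36 and 0.646 FPKM (−3.28 ± 0.29, adjusted p = 1.16e-07). Gna15, a G protein alpha subunit of blood cells, fell from 21.3, 31.2, 34.3 and 36 to 1.44, 0.36, 3.09 and 4.29 FPKM (−3.42 ± 0.33, adjusted p = 3.25e-07). Pld4, a nuclease of the endosome, fell from 157, 203, 147 and 40.02 to 16.1, 20.9, 17.6 and 2.57 (−3.23 ± 0.63, adjusted p = 0.000587), with PBS 4 and LPS 4 the lowest of their groups.

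Of 22 tested regulators of the cycle 14 fell and 3 rose, or 13 and 3 after rescaling. Ccnd1, the cyclin of the G1 phase, fell from 196, 232, 187 and 223 to 31.4, 43.7, 26.6 and 36.3 FPKM (−2.58 ± 0.17, adjusted p = 1.81e-09), and its kinase Cdk4 from 95.3, 88.4, 81.9 and 76.9 to 34.3, 33.4, 30.1 and 30.1 (−1.39 ± 0.13, adjusted p = 3.21e-07). The 3 that rose all encode inhibitors of cyclin-dependent kinases: Cdkn2b went from 2.88, 5.71, 5.01 and 6.01 to 30.6, 20.4, 39.2 and 39.96 FPKM (2.5 ± 0.35, adjusted p = 2.12e-05). Cdkn2a went from 0.885, 1.76, 0.9003 and 2.06 to 10.4, 15.1, 9.68 and 9.69 (2.36 ± 0.28, adjusted p = 3.71e-06), and Cdkn1a, the gene of p21, from 67.7, 53.5, 78.4 and 69.99 to 148, 191, 116 and 123 (1.08 ± 0.18, adjusted p = 0.000149). Another inhibitor, Cdkn2c, fell from 8.54, 10.8, 3.01 and 6.5 to 0.71, 1.48, 1.18 and 1.12 FPKM (−1.86 ± 0.29, adjusted p = 7.62e-05). Foxm1 and Mybl2, factors that activate mitotic genes, fell by 1.94 ± 0.21 (adjusted p = 1.24e-06) and by 2.39 ± 0.29 (adjusted p = 3.71e-06).

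Promoters of the mitotic genes shared 2 short motifs, which is why 3 of them are printed here. The cell cycle genes homology region (CHR), searched as TTTGAA on either strand, was present in 26 of the 33 mitosis promoters found in RefSeq (78.8%), against 11.5% of tested genes, 18.1% of all RefSeq promoters and 6.9% of the 29 DNA replication promoters. The CCAAT box, the motif of NF-Y, was present in 75.8% of mitosis and 65.5% of replication promoters, against 38.5% of tested genes. The 250 bases before the start of Cdk1, Ccnb2 (a mitotic cyclin) and Cdc20 (an activator of the anaphase-promoting complex) lie at chr20:19265043-19265292 on the plus strand, chr8:79981659-79981908 on the minus strand and chr5:137255800-137256049 on the minus strand in GRCr8. Capitals mark CCAAT boxes (ATTGG on the opposite strand) and CHR motifs.
Cdk1: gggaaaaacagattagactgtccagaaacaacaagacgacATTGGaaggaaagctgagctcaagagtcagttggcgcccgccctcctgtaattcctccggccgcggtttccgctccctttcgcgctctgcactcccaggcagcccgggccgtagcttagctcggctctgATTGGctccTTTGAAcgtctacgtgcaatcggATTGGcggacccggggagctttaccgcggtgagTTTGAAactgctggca
Ccnb2: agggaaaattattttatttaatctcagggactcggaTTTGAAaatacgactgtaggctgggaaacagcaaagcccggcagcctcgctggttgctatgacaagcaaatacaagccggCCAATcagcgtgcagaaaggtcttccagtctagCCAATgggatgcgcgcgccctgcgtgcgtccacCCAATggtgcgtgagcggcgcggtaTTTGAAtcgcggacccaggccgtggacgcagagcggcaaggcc
Cdc20: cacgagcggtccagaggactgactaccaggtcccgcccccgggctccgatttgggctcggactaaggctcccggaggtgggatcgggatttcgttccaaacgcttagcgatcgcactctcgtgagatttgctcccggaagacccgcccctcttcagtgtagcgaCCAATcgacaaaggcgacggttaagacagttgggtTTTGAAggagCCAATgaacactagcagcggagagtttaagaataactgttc
Ccnb2 measured 19.99, 24.2, 19.7 and 17.6 FPKM with PBS and 1.62, 0.946, 1.66 and 1.29 with LPS (−3.17 ± 0.23, adjusted p = 8.88e-09), and Cdc20 29.9, 51.7, 48.1 and 35 and 2.44, 4.03, 5.07 and 3.6 (−3.13 ± 0.30, adjusted p = 3.21e-07). Mitotic genes were listed for their function and not for their promoters, and a match is a description of the sequence.

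**Figure D4:**
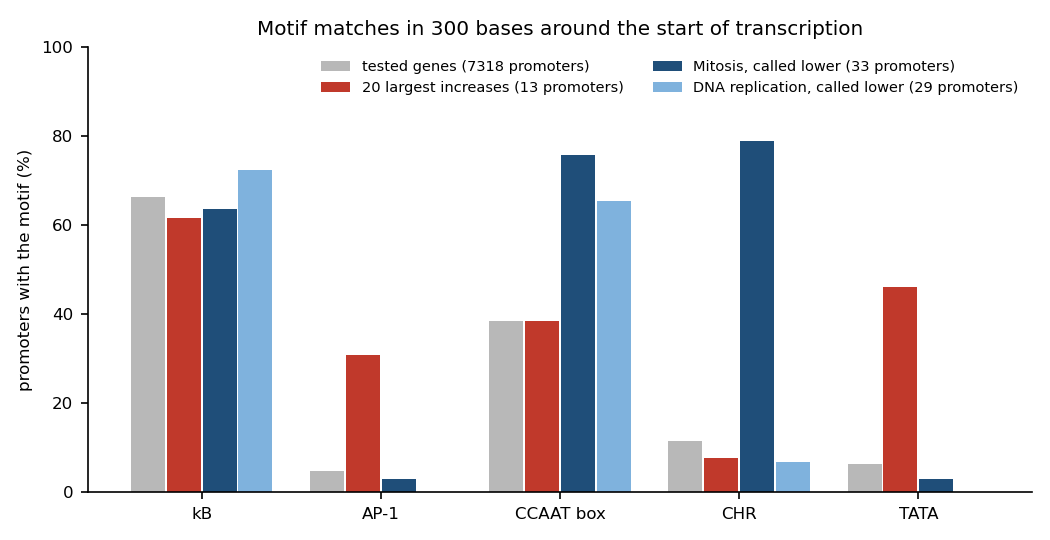
Bars give the percentage of promoters (300 bases, 250 before and 50 after the RefSeq start, GRCr8) with at least 1 match to each of 5 motifs on either strand. CHR stands out in mitosis promoters (78.8% against 11.5% of tested genes) and TATA in the largest increases (46.2% against 6.41%), while kB is near the level of tested genes in every set.

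Of 23 tested genes of glucose uptake and glycolysis 7 rose and 0 fell, after rescaling 13 rose and 0 fell, and within the 13 libraries 16 rose and 1 fell. The glucose transporter gene Slc2a1 (GLUT1) rose from 24.5, 37, 40.8 and 40.5 to 138, 100.0, 215 and 217 FPKM (2.16 ± 0.32, adjusted p = 3.78e-05) and the lactate exporter gene Slc16a3 from 21.2, 29.6, 30.7 and 17.2 to 90.8, 69.8, 136 and 129 (2.05 ± 0.33, adjusted p = 8.6e-05). Ldha, lactate dehydrogenase A, measured 603, 652, 634 and 619.8 and 946, 715, 1112 and 1219 FPKM (0.64 ± 0.15, adjusted p = 0.003). Gapdh was not called as deposited, at 1080, 1097, 1074 and 1062 and 1252, 968, 1263 and 1356 FPKM, and was called higher after rescaling (0.59, adjusted p = 0.00505) and within the 13 libraries (0.28, adjusted p = 0.0104).

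Lipid genes fell in 10 of 21 tested members and rose in 1, or 7 and 4 after rescaling and 10 and 5 within the 13 libraries. Lpl, lipoprotein lipase, fell from 222, 480.3, 761 and 642 to 17.5, 17.2, 46.5 and 52.8 FPKM (−3.98 ± 0.60, adjusted p = 5.37e-05), and Fabp3, a fatty acid carrier, from 8.83, 5.88, 5.88 and 6.53 to 0 in all 4 LPS libraries. Ch25h, which makes 25-hydroxycholesterol, rose from 550.5, 576, 428 and 659 to 773, 967, 974 and 1213 FPKM (0.82 ± 0.20, adjusted p = 0.00314). Of 24 tested cholesterol synthesis genes 6 were called lower and 1 higher (Mvd), near the 27.3% and 5.02% of all tested genes. After rescaling 1 was lower (Dhcr7) and 3 were higher, beside 13.5% and 12.3% of all tested genes. The list median was −0.47 as deposited and −0.082 after rescaling.

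Genes of cell death and survival rose in 4 of 25 tested members and fell in 4, or 8 and 4 after rescaling and 7 and 6 within the 13 libraries. Birc3, an inhibitor of apoptosis, went from 5.79, 8.64, 4.69 and 6.65 to 39.4, 33.2, 49.1 and 51 FPKM (2.58 ± 0.30, adjusted p = 2.68e-06) and Cflar, which blocks caspase-8, from 15.7, 28.8, 27.8 and 27 to 91.1, 59.8, 142 and 128 (2.0 ± 0.35, adjusted p = 0.000202). The pyroptosis genes Gsdmd, the pore former, and Casp1, which cleaves it and pro-interleukin-1 beta, fell. Gsdmd measured 10.6, 10.7, 10.3 and 9.64 and 3.23, 2.12, 1.97 and 2.9 FPKM (−1.68 ± 0.26, adjusted p = 7.54e-05), and Casp1 43, 49.2, 42.2 and 48 and 27.9, 13.5, 20.3 and 21.2 (−1.14 ± 0.16, adjusted p = 2.06e-05). Growth factor genes rose in 3 of 15 tested members and fell in 3, or 6 and 2 after rescaling and 4 and 5 within the 13 libraries. Igf1, a trophic factor for neurons and glia, fell from 39.6, 22.8, 44.7 and 50.3 to 3.88, 4.33, 6.51 and 5.82 FPKM (−2.68 ± 0.23, adjusted p = 1.06e-07) and Inhba, the activin A subunit, rose from 0.27, 0.344, 0 and 0.171 to 29.2, 14.9, 19.1 and 22.4 (4.2 ± 0.22, adjusted p = 9.74e-11). Bmp2, a bone morphogenetic protein, was listed at 0 FPKM in each library with PBS and measured 1.01, 8.27, 6.09 and 3.44 FPKM with LPS.

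LPS was next compared directly with the 2 TLR2 agonists, PAM3CSK4 and zymosan. The differences are between treated libraries, while the spread came from the fit over all 20 libraries. LPS and PAM3CSK4 were used at 1 ng/mL and zymosan, a yeast cell wall preparation, at 100 ug/mL, so that the contrasts describe these treatments and not the receptors at equal strength. Both contrasts share the LPS libraries. In limma 3 genes were called between LPS and PAM3CSK4 (0.0226% of tested genes higher with LPS and 0.0113% lower) and 8 between LPS and zymosan (0.0564% higher and 0.0339% lower), with 343 and 719 genes at an unadjusted p under 0.05. With a pseudocount of 0.1, without the filter or with only the 2 groups in the fit, the PAM3CSK4 contrast called 0 genes, and with only the 2 groups the zymosan contrast called 3. Leaving out any 1 library left 0 to 2 genes and 2 to 9 genes. Ccl5 was the gene called in both contrasts. Its 4 PAM3CSK4 libraries measured 2.31, 3.5, 6.28 and 8.21 FPKM and its 4 zymosan libraries 6.57, 2.96, 4.01 and 6.77, all below the lowest LPS library (25.0). The log2 difference was 2.54 ± 0.41, adjusted p = 0.0364 from PAM3CSK4 and 2.48 ± 0.41, adjusted p = 0.016 from zymosan.

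The remaining calls were split between the 2 contrasts. Il10, an anti-inflammatory cytokine, was lower with LPS, at 3.91, 2.51, 4.78 and 4.45 FPKM, than with PAM3CSK4, at 16.1, 17.5, 8.94 and 18.5 (−1.71 ± 0.29, adjusted p = 0.0364). Zymosan gave 9.61, 6.52, 12.7 and 13.7 FPKM, and that difference was not called (−1.22 ± 0.29, adjusted p = 0.183). Lcn2 was higher with LPS than with zymosan, which gave 256, 309, 239 and 311 FPKM (1.53 ± 0.21, adjusted p = 0.00522). So were Crip2, a LIM domain protein, at 27.3, 24.5, 20.2 and 22.4 against 8.74, 8.44, 5.92 and 8.47 FPKM (1.47 ± 0.21, adjusted p = 0.00522), and the adaptor gene Stap2 (1.23 ± 0.19, adjusted p = 0.012). Rrm2 was lower with LPS than with zymosan (20.9, 26.3, 32.6 and 18.5 FPKM; −1.46 ± 0.27, adjusted p = 0.0365), as were Nradd (−1.0 ± 0.19, adjusted p = 0.0448) and the lysosomal nuclease gene Dnase2 (−0.72 ± 0.11, adjusted p = 0.012). Calm3 and Calm2, which encode the same calmodulin protein and may share reads, were higher with LPS than with PAM3CSK4 (0.77 ± 0.13, adjusted p = 0.0364) and zymosan (0.56 ± 0.09, adjusted p = 0.016) respectively. Crip2, Stap2, Nradd, Dnase2, Calm2 and Calm3 were named after their values were seen.

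**Figure D5:**
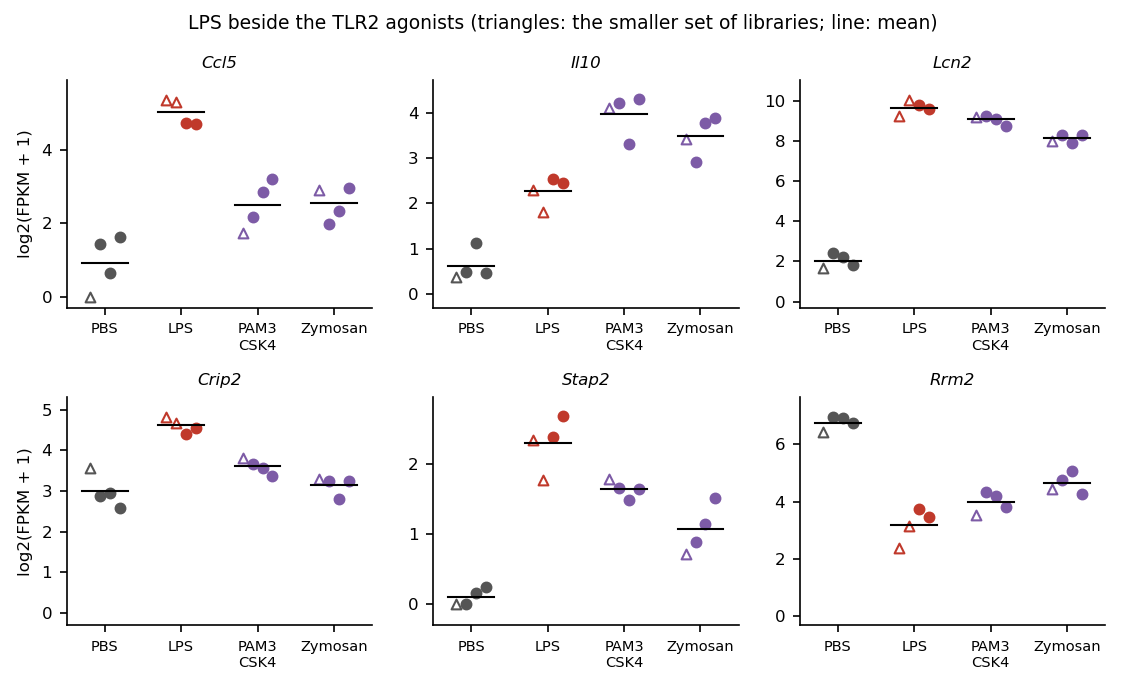
Levels in log2(FPKM + 1) of 6 genes in each PBS, LPS, PAM3CSK4 and zymosan library, open triangles for the smaller set of libraries and a line at each group mean. Ccl5 in all 4 LPS libraries lies above all TLR2 agonist libraries, and Il10 in all 4 LPS libraries lies below them.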

How the data were processed

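RNA of 20 libraries (5 groups of 4) was sequenced, and the authors deposited 1 table of FPKM values for 17310 genes. HISAT2 2.0.5.1, Cufflinks 2.2.1, featureCounts 1.4.6, DESeq2 and build rn6 are named in the submitters' processing notes, without saying which made the table. The labels do not say that libraries of a group came from separate animals or cultures, so that p-values measure the spread between libraries, which may be technical.

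The 8858 genes that reached 1 FPKM in 4 or more libraries were fitted on the log2 scale after adding a pseudocount of 1, in limma 3.58.1 (R 4.3.3) with 5 group means over all 20 libraries and a mean-variance trend. Benjamini-Hochberg adjustment ran over all 8858 genes, and calls had an adjusted p under 0.05. Fold changes on this scale understate the change of low genes. The members and gene lists were chosen with earlier results of these data known. Named genes were the 20 largest non-overlapping increases and decreases among called genes with a group mean of at least 5 FPKM, members of the fixed lists (any member of lists or roles of at most 28, otherwise the 4 largest called), all members of the TLR4, neutrophil-attracting and interferon-linked chemokine, chemokine receptor and resting microglia lists, genes called against both TLR2 agonists, and 5 abundant reference genes. Replicate numbers were checked for pairing by correlating deviations from group means. Between PBS and LPS the correlations were 0.545, −0.186, 0.505 and 0.499 for numbers 1 to 4. PBS 2 and LPS 2 lie in different library sets. Pairing by number was therefore not settled, and the main fit did not use it. Alternatives were a pseudocount of 0.1, no filter, median-ratio rescaling, library quality weights, a replicate block, only the groups compared, and each replicate left out, and, chosen after seeing the data, the library-set fits and zeros beside 5 FPKM or more taken as missing. Absolute depth is unknown. Relative depth was read from the commonest ratio between values under 0.5 FPKM in a library and in LPS 4. Divided by it, 63.9% to 82.8% of those ratios lay within 0.003 (log2) of a ratio of 2 whole numbers from 1 to 6. Promoters are from RefSeq (GRCr8), matched by symbol. Some genes of the lists are counted but not reported by name here.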

Additional observations from a re-analysis of the deposited data

Results flagged for a closer look

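The named genes gave 448 gene and group pairs. Pairs without any spread or with no library at 1 FPKM were passed over, and how many remained was not counted. Of those examined, 18 had 1 library far from the other 3 (gap over range above 0.829), where chance gives about 5% of examined pairs. With PBS, library 1 was lowest for Cflar (15.7 FPKM), Pla2g4a (36.2) and Tnfrsf1b (2.42) and highest for Spr (13.4), Tab2 (4.85) and Tyrobp (1901). PBS 2 was highest for Siglec5 (16.1), PBS 3 for Il10 (1.17) and PBS 4 for Ptgs2 (3.37). With LPS, library 1 was lowest for C1qb (8.74) and highest for Il23a (21.1). LPS 2 was lowest for Il6 (396) and Ptger2 (21.1) and highest for Cdkn2a (15.1) and Lta (11.1). LPS 4 was highest for Cd14 (1083), Slc2a6 (173) and the neuronal marker Tubb3 (18.6). PBS 1 and LPS 1 and 2 belong to the smaller set of libraries, and the part of that set in these values was not tested.

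The other results singled out are genes whose level differed between LPS and a TLR2 agonist in limma's test of that difference. Against PAM3CSK4 the log2 differences were 2.54 for Ccl5, 0.77 for Calm3 and −1.71 for Il10. Against zymosan they were 2.48 for Ccl5, 1.53 for Lcn2, 1.47 for Crip2, 1.23 for Stap2, 0.56 for Calm2, −0.72 for Dnase2, −1.0 for Nradd and −1.46 for Rrm2.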

How the results depend on the processing

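The counts of genes called with LPS against PBS depended on scale and on the library sets. The 445 higher calls became 1093 after median-ratio rescaling, 818 with library quality weights, 863 with a term for the library set, 836 within the 13 libraries and 1861 with rescaling and the set term together. Leaving out 1 replicate gave 352 to 469. The 2421 lower calls became 1200 after rescaling and 3823 with quality weights, and 1860 to 2569 on leaving out 1 replicate. At an unadjusted p under 0.05 there were 3786 genes. A replicate block gave 672 higher and 3668 lower calls, 7 against PAM3CSK4 and 152 against zymosan. Same-numbered PBS and LPS libraries deviated together for numbers 1, 3 and 4 and not for 2. Whether the number is a pairing from the design was therefore not settled. Under the block no named call was lost or reversed and 9 were gained. The 3 calls against PAM3CSK4 became 0 with a pseudocount of 0.1, 0 without the filter, 0 with only the 2 groups, 37 with quality weights, 11 with the set term, 1 within the 13 libraries and 13 with rescaling and the set term, and 0 to 2 on leaving out 1 replicate. The 8 calls against zymosan became 183 with quality weights, 3 with only the 2 groups, 96 with the set term, 16 within the 13 libraries and 65 with rescaling and the set term, and 2 to 9 on leaving out 1 replicate. The cause was not tested.

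The alternative runs were compared for 224 named genes. Nfkbib, Gins3 and the cell markers Pecam1, Tek, Cdh5, Cspg4 and Cd8a, also named above, were not among them. Of the 191 of these genes called with LPS against PBS, 164 kept call and direction in every alternative run. Rescaling ended 14 named calls and made 5 (Rela, Traf6, Gapdh, Calm2 and Calm3), and quality weights ended 0 and made 13. Rela turned from −0.0049 to 0.42 after rescaling and 0.38 with rescaling and the set term. With those 2 together Itgb2 turned to 0.47, Selplg to 0.29, Tollip to 0.37 and the median of the cholesterol synthesis list to 0.0033. Where depth is unknown, a gene listed at 0 cannot be told from one too low to detect.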
